A study of Mus musculus with 2 samples.

Results

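Cadherins, protocadherins and Fat cadherins were examined in the granule cell layer of mouse cerebellum, the inner layer of its cortex, which is densely packed with small excitatory granule neurons. The genes were all those whose only annotated symbol began with Pcdh, with Cdh and a digit, or was Fat1, Fat2, Fat3 or Fat4, leaving out the endothelial gene Cdh5. This rule used names alone and gave 59 of 18194 named genes, measured by 104 of 34958 named probe sets. The material came from untreated male C57BL/6J mice, aged 8 weeks, as 1 group of 2 samples. Laser capture microdissection isolated the layer from 12 μm sections, and roughly 1 ng of RNA per sample was amplified and labelled for Affymetrix arrays. Both sample titles name animal 1, so the spread between sample 1 and sample 2 may be technical, and no test between groups was possible. Each array gave 1 intensity per probe set on a linear scale in array units.

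Cadherins are transmembrane proteins that hold cells together through calcium-dependent binding of their extracellular repeats. Classical cadherins of type I and type II bind catenins inside the cell, which link them to actin, whereas protocadherins lack this catenin site. The clustered protocadherins are encoded in tandem arrays from which single neurons use different subsets. Fat cadherins are giant relatives known for roles in tissue polarity and in the contact of neighbouring cells. In the cerebellum, adhesion proteins of these families have been linked to the migration of granule neurons and to the synapses of their axons, the parallel fibres.

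The brightest probe set stood for a gene with several. A gene was called above background when this exceeded, in each sample, the 95th percentile of 91 genes typical of other organs, an intensity of 10.8 in sample 1 and of 16.1 in sample 2. By this measure 19 of the 59 genes (32.2%) were above background in both samples, against a background of 46.4% of all named genes. A further 8 genes passed in sample 1 alone and 2 in sample 2 alone. The brightest probe sets of the remaining 30 genes passed in neither sample, with intensities from 0.2 to 10.6. A dimmer probe set of Fat4 reached 13.3 in sample 1. The share depended on the number of probe sets. Among genes with 1 probe set, 9 of 32 cadherin genes (28.1%) and 29.3% of all genes passed. Among genes with 2 or more probe sets the shares were 10 of 27 (37.0%) and 63.9%. Intensities of different genes also depend on their probes, so each gene is set against background only and not against another gene.

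**Figure D1:**
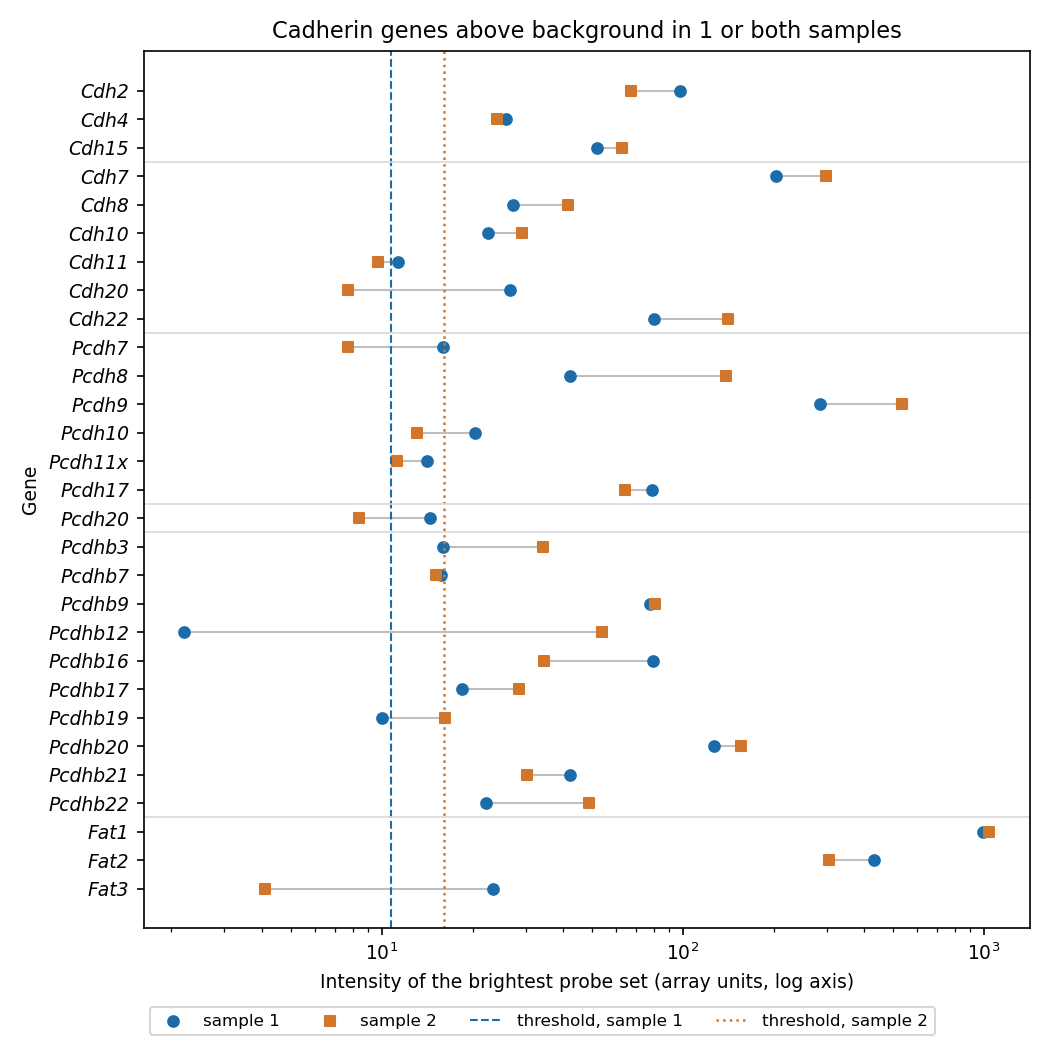
Intensity of the brightest probe set of each of the 29 cadherin genes above background in 1 or both samples, in array units on a log axis, with circles for sample 1, squares for sample 2 and a grey line joining them. The vertical lines are the thresholds of 10.8 (sample 1) and 16.1 (sample 2). The 19 genes with both symbols to the right of their own line include Fat1, Fat2, Pcdh9 and Cdh7, and Pcdhb12 has the longest grey line.

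Tissue markers fixed with the gene lists were checked in the same way. All 12 granule neuron markers were above background, with summed intensities of 36873 in sample 1 and 38943 in sample 2, among them the GABA-A receptor subunit Gabra6 (8189 and 8327). Of the marker lists of other cells, read against the 46.4% of all named genes, those above background in both samples were 7 of 8 Purkinje cell markers (sums 1129.7 and 1278.1), 6 of 8 astrocyte and Bergmann glia markers (4957.4 and 4839.8), 6 of 7 oligodendrocyte markers (8054 and 7593), 1 of 4 oligodendrocyte precursor markers (33.2 and 109.9), 4 of 8 markers of interneurons and unipolar brush cells (491.7 and 554.6), 5 of 9 endothelial and pericyte markers (390.7 and 360.8) and 3 of 7 microglial markers (411.9 and 592.5). None of the 8 choroid plexus and meninges markers passed in both samples (71.3 and 54.5). No marker was at 0 in both samples. The share of all named genes above background depends on the number of probe sets, which differed among these markers. The part of these other cells in the cadherin signals was not tested, and in such bulk samples fewer cells of a type and less RNA per cell cannot be told apart.

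Of the 5 type I cadherins, which carry the classical catenin-binding tail, 3 were above background. Cdh15, M-cadherin, known from muscle and from cerebellar granule neurons, had intensities of 51.7 in sample 1 and 62.7 in sample 2 (SD 7.78, n = 2), about 4.81 and 3.91 times the threshold. Cdh2, N-cadherin, the main classical cadherin of neurons, had 97.9 and 67.3 (SD 21.6, n = 2). Its second probe set gave 5.9 and 21.1 and was above background in sample 2 alone. Cdh4, R-cadherin, had 25.9 and 24.1 in the brightest of its 3 probe sets, and the others gave 8.6 and 15.1, and 1.5 and 0.9. The epithelial cadherins of this type were low in both samples. Cdh1, E-cadherin, had 0.7 and 1.2, and Cdh3, P-cadherin, had 4.5 and 8.

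Type II cadherins, which bind catenins like type I but have a different adhesive surface, were represented by 10 genes, of which 4 were above background. Cdh7 had 203.5 and 299.3 (SD 67.7, n = 2), 18.9 and 18.6 times the threshold. Its other probe sets gave 128.1 and 159.6, and 87.1 and 63.6, so that all 3 lay above background in both samples. Cdh8 also passed with all 3 of its probe sets, at 27.3 and 41.6, at 20.5 and 28.1, and at 27.2 and 16.1. These were the only genes of the 27 with several probe sets for which every probe set passed.

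Cdh22, also known as PB-cadherin, had 80.1 and 141.5 (SD 43.4, n = 2) from its single probe set. Cdh10 had 22.5 and 29.2, whereas its other 3 probe sets lay between 0.3 and 8.8. Cdh20 (26.6 and 7.7) and Cdh11, OB-cadherin (11.3 and 9.7), passed in sample 1 alone. The other type II genes stayed below both thresholds. Cdh6, K-cadherin, had 0.4 and 7.1, Cdh9 0.2 and 4.5, Cdh18 2.7 and 0.7, and Cdh19 4.2 and 6.6. Of the type II genes, Cdh12 and Cdh24 were not analysed here.

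The type II genes above background did not share one kind of start region. Windows before the start annotated in RefSeq (build GRCm38.p6) were analysed for 24 of the 59 genes and cut to the 250 bases upstream. No clustered protocadherin was among these genes, nor were Cdh2, Pcdh1 and Pcdh12. Cdh22 and Cdh10 are printed because they hold the highest and the lowest G+C share among these windows, 77.6% and 36.8%, while both genes were above background. The capitals mark each CpG dinucleotide, searched as CG, which reads the same on both strands. Cdh22 lies on the minus strand at chr2:165234738-165234987 and Cdh10 on the plus strand at chr15:18820079-18820328.
Cdh22: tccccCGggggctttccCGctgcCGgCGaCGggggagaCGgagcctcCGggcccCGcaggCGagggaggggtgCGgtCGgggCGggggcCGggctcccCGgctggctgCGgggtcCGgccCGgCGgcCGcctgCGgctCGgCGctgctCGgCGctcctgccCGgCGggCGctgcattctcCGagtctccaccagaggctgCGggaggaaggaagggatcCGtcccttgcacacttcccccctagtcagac
Cdh10: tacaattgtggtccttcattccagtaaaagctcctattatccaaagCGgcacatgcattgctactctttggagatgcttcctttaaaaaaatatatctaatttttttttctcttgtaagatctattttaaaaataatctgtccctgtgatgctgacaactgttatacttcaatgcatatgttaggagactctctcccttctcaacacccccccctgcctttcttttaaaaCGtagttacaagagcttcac
The Cdh22 window held 30 CpG dinucleotides and the Cdh10 window 2. Among the 24 genes analysed, at least 10 were found in 8 of the 13 windows (61.5%) of those above background in both samples. These 13 windows came from only 10 genes. Cdh7 and Pcdh9 had several each, and those of Pcdh9 overlap almost fully, so some genes count more than once in this share. The other genes, with 1 window each, had at least 10 in 6 of 14 windows (42.9%), and all 32851 windows of the table in 37.8%. Among the genes above background, the cadherin counts leave out the clustered protocadherins, Cdh2 and Cdh4. The 32851 windows were not restricted in this way. The array did not measure which start was used, and some annotated starts may lie inside a longer transcript.

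The 5 cadherins outside both types were low throughout. Cdh13, T-cadherin, which is held by a lipid anchor and lacks a cytoplasmic tail, had 5 and 9.5 in the brightest of its 4 probe sets. Cdh23, part of the tip links of inner ear hair cells, had 2.7 and 8.8. The kidney cadherin Cdh16 had 2.5 and 0.3, the liver and intestine cadherin Cdh17 0.4 and 0.3, and Cdh26 5 and 1.3. Pcdh15, the partner of Cdh23 in the tip link, had 5.3 and 10.4.

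Delta protocadherins are the non-clustered protocadherins with conserved motifs in their cytoplasmic tails, and 3 of 9 were above background. Pcdh9 had 285.2 and 535.5 (SD 177, n = 2), at 26.5 and 33.4 times the threshold, and a second probe set gave 316 and 498.1. Sample 2 was the higher in both, while the remaining probe set gave 1.4 and 12.6. Pcdh17, known from presynaptic sites in the basal ganglia, had 78.8 and 64 in 1 of its probe sets and 7.5 and 1 in the other. Pcdh8, whose rat counterpart arcadlin is induced by neuronal activity, had 42.1 and 138.6 from a probe set of the _x_at kind, which can match several transcripts. Its other probe set gave 9.8 and 27, above the probe set threshold of 14.8 in sample 2 and just under that of 10.03 in sample 1.

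The delta protocadherins Pcdh10 (20.4 and 13.1), Pcdh11x (14.1 and 11.2) and Pcdh7 (16 and 7.7) passed in sample 1 alone. For Pcdh10 this was the brightest of 6 probe sets, and the others lay between 0.3 and 16. The epilepsy gene Pcdh19 had 10.2 and 0.7, Pcdh18 had 2 and 1.7, and Pcdh1 had 1.9 and 0.3. Among the 3 other non-clustered protocadherins, Pcdh20 passed in sample 1 alone (14.5 and 8.4), and Pcdh12, known from endothelial cells, had 2.2 and 3.9.

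**Figure D2:**
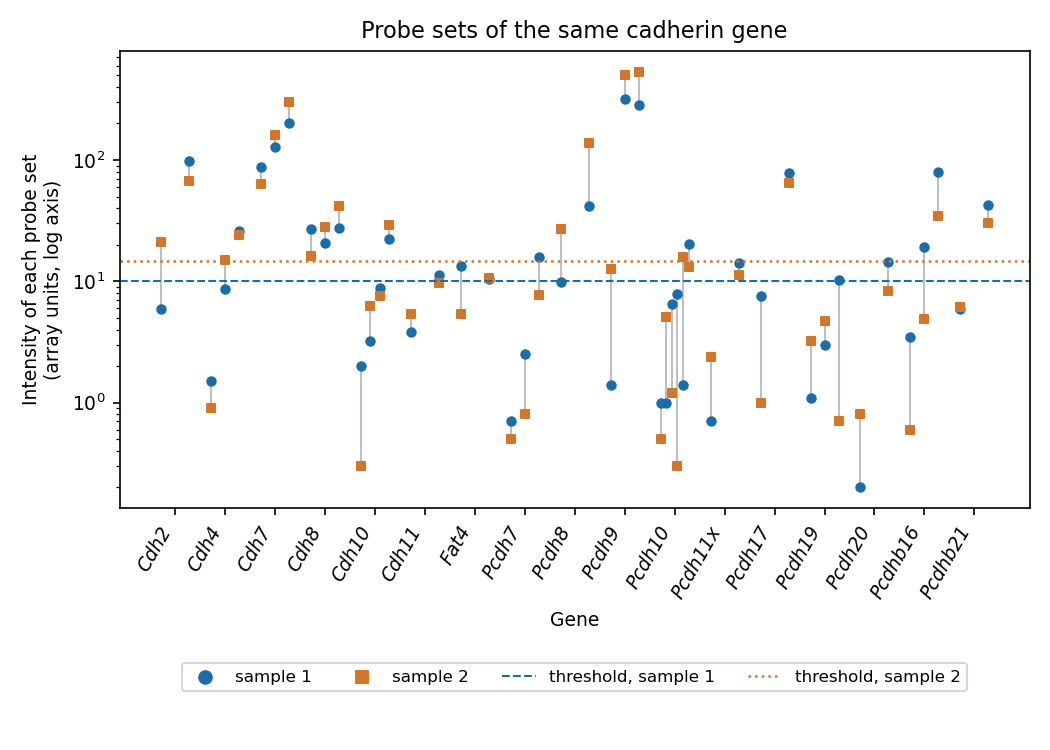
Intensity of each probe set, in array units on a log axis, for the 17 cadherin genes that have several probe sets and at least 1 of them above background in at least 1 sample. Circles are sample 1, squares sample 2, a grey line joins the values of 1 probe set, and the horizontal lines are the probe set thresholds of 10.03 and 14.8. All probe sets of Cdh7 and Cdh8 lie above the lines, whereas those of Cdh10, Pcdh17 and Pcdh9 lie on both sides.

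Counted by probe set, 25 of the 104 cadherin probe sets (24%) were above background in both samples, against 38.0% of all named probe sets. Of the 27 cadherin genes with several probe sets, 8 had some above and some not, 2 had all above and 17 had none. Over all 9012 genes with several probe sets, 4516 (50.1%) were mixed in this way, 1370 had all above and 3126 had none. Of the cadherin probe sets, 9 were of the _s_at, _x_at or _a_at kind, and 1 of these, that of Pcdh8, was above background. Probe sets near the 5′ end of a transcript can be dim after such an amplification. The control probe sets for the 3′ end were 10.1 and 10.4 times as bright as those for the 5′ end for Gapdh, and 29.0 and 37.9 times for Actb. The ratio was 7.02 and 3.34 for pyruvate carboxylase, 4.8 and 1.86 for the transferrin receptor, and 0.740 and 0.881 for 18S ribosomal RNA, which has no poly-A tail. The part of this in the dim cadherin probe sets was not tested.

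The clustered beta protocadherins, single-exon genes that lie in tandem, were all named by probe sets of their own, and 7 of 22 were above background. Pcdhb20 had 127.3 and 155.6 (n = 2), 11.8 and 9.69 times the threshold. Pcdhb9 had 77.8 and 80.7 (SD 2.05, n = 2), nearly the same in both samples. Pcdhb21 had 42.2 and 30.4, and its second probe set 5.9 and 6.2. Pcdhb17 had 18.5 and 28.5. Pcdhb16 was the higher in sample 1 (79.7 and 34.6), while Pcdhb22 (22.2 and 48.6) and Pcdhb3 (15.9 and 34.4) were the higher in sample 2. The other probe sets of Pcdhb16 gave 19 and 4.9, and 3.5 and 0.6, and neither passed in both samples.

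Of the beta genes that passed once, Pcdhb12 had 2.2 in sample 1 and 54 in sample 2, a ratio of 24.5 that rests on 1 value below background. Pcdhb7 had 15.7 and 15.1, and Pcdhb19 had 10 and 16.2, both within a few units of a threshold. The 1 probe set of Pcdhb7 exceeded the lower probe set thresholds of 10.03 and 14.8 in both samples. It is therefore among the 25 cadherin probe sets counted as above background. The other 12 beta genes passed in neither sample and reached at most 9.5. Pcdhb2 (0.9 and 0.9), Pcdhb6 (0.9 and 0.4) and Pcdhb18 (0.5 and 0.2) were under 1 in both. Beta protocadherins are similar in sequence, so part of a signal may come from a related gene. The 1 gamma protocadherin with a probe set of its own, Pcdhgc4, had 1 and 0.8.

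Along the tandem array, in RefSeq's order of the genes, the beta protocadherins above background lay mostly at the far end. Of the last 7 genes, Pcdhb16 to Pcdhb22, 5 passed in both samples, 1 in sample 2 alone (Pcdhb19) and 1 in neither (Pcdhb18). Of the first 15, 2 passed in both, 2 in 1 sample, and 11 in neither. This division was drawn after the values were seen and has no test, and most of these genes rest on 1 probe set each.

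**Figure D3:**
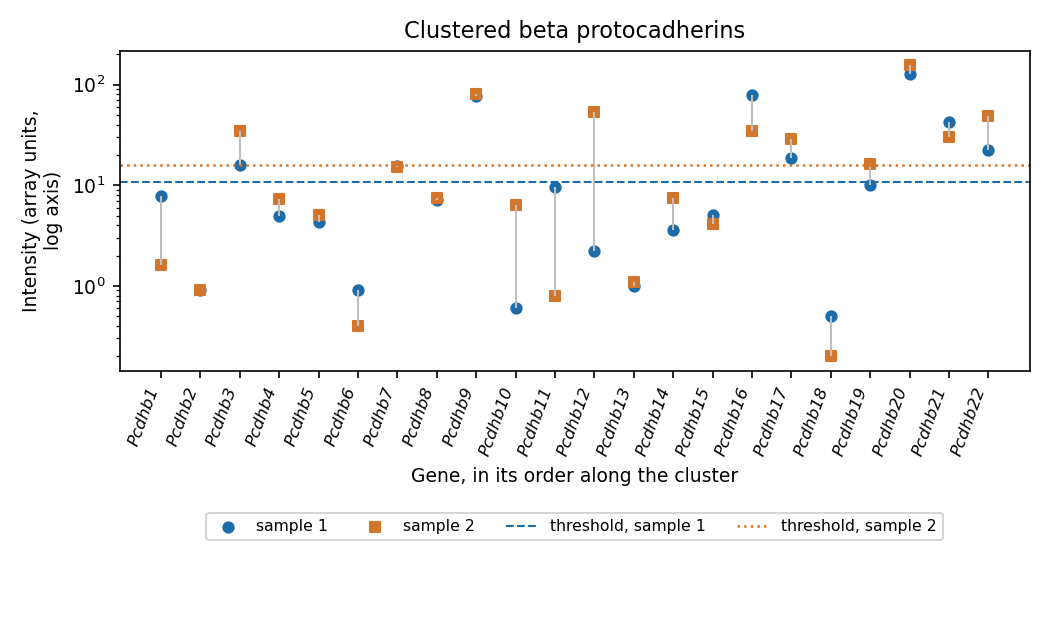
Intensity of the 22 clustered beta protocadherins in array units on a log axis, in their order along the cluster, with circles for sample 1 and squares for sample 2. The horizontal lines are the thresholds of 10.8 and 16.1. Of the 7 genes from Pcdhb16 to Pcdhb22, 5 have both symbols above their own line, and of the first 15 genes 2 do.

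Several other members that neighbour each other in RefSeq's gene order stood on different sides of the threshold. Cdh7 was above background with all its probe sets, and the adjacent Cdh19 was not (4.2 and 6.6). Cdh10 passed, and its neighbour Cdh9 did not (0.2 and 4.5). Cdh8 passed in both samples, and the next gene, Cdh11, in sample 1 alone. Pcdh9 passed in both samples and the adjacent Pcdh20 in sample 1 alone. The neighbours Cdh1 and Cdh3 were both below background, as were Cdh6 and Cdh9.

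Of the 4 Fat cadherins, Fat1 and Fat2 were above background. Fat1, which takes part in actin organisation at cell contacts, had 996.3 and 1043.4 (SD 33.3, n = 2), 92.7 and 65.0 times the threshold. Fat2, known from granule neurons and their parallel fibres, had 431.3 and 305.7 (SD 88.8, n = 2). Fat3, known from the dendrites of retinal amacrine cells, had 23.4 and 4.1 and passed in sample 1 alone. Fat4, which binds Dchs1 in planar polarity, had 10.5 and 10.6 in an _s_at probe set and 13.3 and 5.4 in another. Dchs1 itself was below background (10.5 and 5.5), and Fjx1, the homologue of a fly regulator of Fat, was above it (19.6 and 31.9).

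The samples were set against each other for the genes above background in at least 1 of them. Of these 29 genes, 4 (13.8%) were at least 2-fold higher in sample 1, against 13.4% of all 10789 such genes. These were Cdh20, Fat3, Pcdh7 and Pcdhb16. Another 4 (13.8%), namely Pcdh8, Pcdhb3, Pcdhb12 and Pcdhb22, were at least 2-fold higher in sample 2, against 11.8% of all genes. Both shares lie near those of all genes. Among the 19 genes above background in both samples, 15 (78.9%) were within 2-fold, against 86.0% of all such genes, and 13 (68.4%) were higher in sample 2, against 56.1%. The median log2 difference, sample 1 minus sample 2, was −0.29 over the 19 genes and −0.08 over all genes above background. The median over the cadherin genes was −0.053 with no background filter and −0.067 with olfactory receptor genes as background. On the log2(value + 16) scale 0 cadherin genes were 2-fold higher in sample 1 and 2 in sample 2. With 1 array on each side these differences have no replicate check.

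Agreement between the samples differed with the level. All 6 cadherin genes with a mean intensity of 100 or more, which were Cdh7, Cdh22, Fat1, Fat2, Pcdh9 and Pcdhb20, were within 2-fold, as were 94.0% of all 3928 such genes. Between 20 and 100 this held for 9 of 14 cadherin genes (64.3%) and 72.0% of all genes. Under 20 it held for 22 of 39 (56.4%) and 42.9%.

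Partners of the cadherins were described from 5 lists of genes, read against the 46.4% of all named genes above background. That share was 29.3% for genes with 1 probe set and 63.9% for those with 2 or more. Most genes of the lists of catenins, of the WAVE complex and of proteases that cut cadherins had 2 or more. So did all genes of the list on clustered protocadherin promoters. For these lists 46.4% is therefore a low reference. Each gene is given by its brightest probe set, and its other probe sets did not always pass. The lists' median log2 differences between the samples lay from −0.42 to −0.01. Of 16 catenins and related armadillo or junction genes, 9 were above background, including those that link classical cadherins to actin. Ctnnb1, beta-catenin, had 1220.1 and 1386.1, and Ctnna1, alpha-E-catenin, had 952.3 and 961.1. Ctnna2, the neuronal alpha-catenin, had 16.4 and 23 from its 1 probe set. Ctnnd2, the neuronal delta-catenin, had 296 and 289.6, Pkp4 1296.4 and 1464.4, plakoglobin (Jup) 51.5 and 39.6, vinculin (Vcl) 156.6 and 85.1, afadin (Afdn) 130.9 and 96.2, and Ctnnal1 11.7 and 28.3. Ctnnd1, p120-catenin, passed in sample 1 alone (11.1 and 15.5). Without the _s_at, _x_at and _a_at probe sets the count was 5 in place of 9.

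Of 17 other genes of the cadherin superfamily or its polarity pathway, 6 were above background. They included all 3 calsyntenins, neuronal membrane proteins with cadherin repeats, namely Clstn1 (698.9 and 813.1), Clstn2 (318.2 and 234.5) and Clstn3 (30.8 and 18.5). They also included the seven-pass cadherins Celsr2 (37 and 43.3) and Celsr3 (42.9 and 62.3), and Fjx1. Celsr1 had 6.3 and 4.8, and the desmosomal genes Dsg1a, Dsg2, Dsc1 and Dsc3 stayed under both thresholds, while the desmosomal Dsc2 passed in sample 1 alone (16.1 and 14.9). With the 99th percentile of the background genes as threshold, 3 of the 17 genes passed.

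The WAVE complex drives branched actin assembly and can be bound by the tails of delta protocadherins, and 7 of its 9 genes were above background. Nckap1 had 1273.3 and 1269.6, Brk1 1450.3 and 1289.5, Wasf1 594.9 and 663.2, Abi2 501.6 and 311.7, and Cyfip2 172.6 and 223.3. Abi1 (108.5 and 226.5) and Wasf2 (32.2 and 58.1) passed as well, and Wasf3 did not (3.1 and 4.7). Of 7 genes of the proteases that cut cadherins, 5 passed. They were the sheddase Adam10 (859 and 1218.4) and the gamma-secretase genes Psenen (796.9 and 821.4), Aph1a (190.5 and 238.1), Aph1b (146.3 and 200) and Psen2 (22.6 and 30.3), while nicastrin (Ncstn) had 6.1 and 0.6. Adam17 passed in sample 1 alone (20.8 and 8.6).

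Genes that take part in the choice and silencing of clustered protocadherin promoters were above background in 11 of 12 cases. All 12 had 2 or more probe sets, and 63.9% of all such genes passed. Ctcf, the insulator protein that binds these promoters, had 297.6 and 212.9. The cohesin genes Rad21 (547.8 and 737.2), Smc1a (243.6 and 195.3), Smc3 (20.4 and 45), Stag1 (198.4 and 225) and Stag2 (681.8 and 826.6) passed, as did the cohesin loader Nipbl (144.4 and 149.7) and the release factor Wapl (531.8 and 748.9). Smchd1, a silencer of the clusters, had 199.8 and 310.1, the DNA methyltransferase gene Dnmt3b 46.5 and 114.8, and the histone methyltransferase gene Setdb1 34.4 and 26.9. The zinc finger gene Wiz did not pass (6.8 and 7.2). These genes act widely in the cell, and the lists were short.

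**Figure D4:**
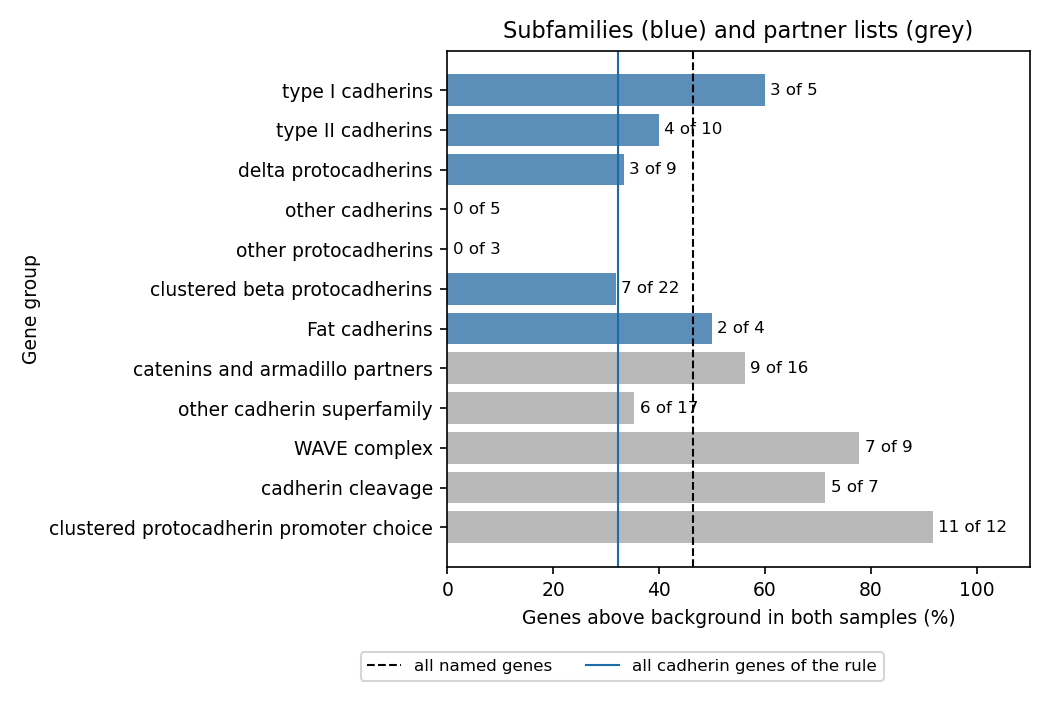
Percentage of genes above background in both samples, for the cadherin subfamilies (blue bars) and the partner lists (grey bars), with the number of genes beside each bar. The dashed line marks all named genes (46.4%) and the solid line the 59 cadherin genes (32.2%). Neither line allows for the number of probe sets per gene. The bar for promoter choice genes reaches 91.7% and that for type I cadherins 60%, while other cadherins and other protocadherins are at 0.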

How the data were processed

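The values that the authors deposited are linear intensities, 1 for each probe set of an array. They were made with the Affymetrix software GCOS per the submitters' processing notes. Its version, settings and scaling target were not stated. The table held 45101 probe sets and no detection calls, with array medians of 7.9 and 8.3. Values were used as deposited, and zeros (2 in sample 1, 1 in sample 2) were set to 0.1 before log2. Differences are log2 sample 1 minus log2 sample 2.

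Probe sets were named from the platform annotation. It gave 1 symbol for 34958 probe sets, several for 932 and none for 9211. All 59 cadherin genes matched RefSeq by gene ID, whose gene table served for names and gene order, and whose promoter table gave the upstream windows. The background list named 100 genes, of which 91 were measured. Of these, Tff1 exceeded the threshold in both samples (20.9 and 47.3). For single probe sets the threshold was taken over the 135 probe sets of those genes.

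Every cadherin gene was evaluated. The text names each gene above background in 1 or both samples and examples of the rest. The members and lists were chosen with earlier results of these data known. Alternatives were other percentiles and background genes, gene summaries, normalization, log scale, no filter and single samples. Calculations used Python 3.11.15 with pandas 2.3.3, and the calling steps were tested on simulated data. The number of arrays limits the precision.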

Additional observations from a re-analysis of the deposited data

How the results depend on the processing

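Of 107 values recomputed under alternatives, 97 stayed close and 10 moved further. For a count, close meant within 1.5 times the count given. For the median log2 difference it meant within the standard error of the mean log2 difference over the 19 genes. That error takes genes as replicates and served only as a tolerance. Only the median difference could reverse in sign, and it stayed negative wherever it was recomputed. With the 99th percentile as threshold (20.9 and 48.0), 12 cadherin genes and 16 cadherin probe sets were above background, and 3 genes of the superfamily list. That threshold left 32.2% of all genes and 20.3% of the cadherin genes. Without _s_at, _x_at and _a_at probe sets the catenin list had 5 genes. With log2(value + 16) 0 cadherin genes were 2-fold higher in sample 1 and 2 in sample 2, and with no background filter 13 and 9. The median log2 difference was −0.053 with no filter and −0.067 with olfactory receptor genes as background. That background raised the share of cadherin genes to 42.4% and that of all genes to 52.5%.

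Of the 19 genes, 11 were above background under all 7 alternatives of threshold, background genes, summary and normalization. These were Cdh2, Cdh7, Cdh15, Cdh22, Fat1, Fat2, Pcdh9, Pcdh17, Pcdhb9, Pcdhb20 and Pcdhb22. The 99th percentile left out Cdh4, Cdh8, Cdh10, Pcdhb3, Pcdhb16, Pcdhb17 and Pcdhb21. The mean of all probe sets left out Cdh4, Cdh10 and Pcdhb16, and Pcdh8 was lost without the _x_at probe set. Sample 2 alone gave 21 cadherin genes (35.6%, against 49.7% of all genes). Sample 1 alone gave 27 (45.8%, against 56% of all genes). No paired analysis was possible because there was only 1 group.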

Other observations

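The rule left out 6 probe sets that the annotation assigns to several clustered alpha protocadherin genes at once, 9 or 14 symbols each. They name no single gene. Of these 6, 3 were above the probe set thresholds of 10.03 and 14.8 in both samples. The first had 195.2 in sample 1 and 319.7 in sample 2 (mean 257 ± 88.0 SD, n = 2). The others had 15.4 and 16.7, and 10.7 and 28.4, and all 3 were _s_at probe sets assigned to 14 symbols. The 3 probe sets assigned to 9 symbols stayed between 0.4 and 8.8.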
